A study of Mus musculus with 24 samples.

Results

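Kdr, Tek, Cdh5 and Vtn, which mark blood vessels and their supporting cells, and Csf1r, C1qb and P2ry12, which mark microglia, were followed in RNA bound to STAU2 in the developing mouse cortex. They were chosen by gene symbol, and each of the 7 has exactly 1 peak among the 14297 peak rows, from 7970 genes, in the table analysed. STAU2 is a double-stranded RNA-binding protein, and RNA immunoprecipitation recovers the transcripts bound to it with an antibody. The 12 libraries analysed came from brain cortex of C57BL/6 embryos at 4 embryonic stages, E11.5, E13.5, E15.5, then E17.5, with 3 STAU2 immunoprecipitations at each. The count columns carry names that fit both an immunoprecipitation and its input, and every value below rests on reading them as the immunoprecipitations, since the table lists peaks. All embryos are described by strain and stage alone, with no other genotype or agent named, and nothing in the labels says whether a library came from 1 embryo or a pool, so p-values measure the spread between these libraries. Input RNA was not analysed here, and a stage difference in bound RNA can come from its abundance, its binding or both. In bulk tissue, fewer cells of a type and less RNA per cell cannot be told apart.

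Cortical vessels grow in from a plexus outside the brain: endothelial cells line the tube, and pericytes and smooth muscle cells (mural cells) wrap it. VEGF acts through KDR to drive sprouting, angiopoietins act through TEK (TIE2) to stabilise vessels, and VE-cadherin, the product of Cdh5, joins endothelial cells to each other. Microglia descend from yolk sac macrophages, enter the brain in the embryo, and depend on CSF1R signalling to survive.

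The peaks of 6 of the 7 genes are called 3′ UTR in the table and that of Vtn is called Exon, where 46.9% of all gene rows are called 3′ UTR. On mm10 they lie at chr5:75932838-75933185, minus strand (Kdr), chr4:94874081-94874636, plus strand (Tek), chr8:104143619-104144177, plus strand (Cdh5), chr11:78499843-78500159, plus strand (Vtn), chr4:136880045-136880389, minus strand (C1qb), and chr3:59216509-59216843, minus strand (P2ry12). The 30 transcript bases at the centre of 5 of the 3′ UTR peaks are shown 5′ to 3′ from GENCODE vM21 transcripts (GRCm38). Reads are counted over the whole of each peak, 335 to 559 bases in these 5, of which the sequences show only the centre. Capitals in the P2ry12 sequence mark AATAAA, the polyadenylation hexamer.
Kdr: agaaactcgaaggaatcctttcatggaata
Tek: tacaactgaatgctataaaagtgttttgct
Cdh5: caagcctggctgaaccgtaactgcaccaca
C1qb: cctccctggacccctgacatcacccccttg
P2ry12: aaggacagacatgatgAATAAAattattaa
The Vtn peak differs in kind, since it lies in coding sequence: 200 of its bases fall in exon 3, 79 in the intron that follows and 38 in exon 4. Its coding bases are shown joined, with the part from exon 4 in capitals.
Vtn: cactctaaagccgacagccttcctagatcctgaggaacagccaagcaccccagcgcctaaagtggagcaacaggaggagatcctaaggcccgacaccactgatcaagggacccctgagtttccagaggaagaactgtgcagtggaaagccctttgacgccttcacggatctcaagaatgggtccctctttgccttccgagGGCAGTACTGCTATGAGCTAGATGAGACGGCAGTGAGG

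The windows under these peaks differed in base composition. In the 151 transcript bases around each peak centre, GC content was 27.8% for P2ry12 and 32.5% for Tek, against 45.7% for Kdr, 52.3% for C1qb, and 55.6% for Cdh5 and for Vtn. The 5137 windows of the table called 3′ UTR had a median of 46.4% GC, with quartiles of 38.4% and 52.3%, so P2ry12 and Tek lay below the lower quartile and Cdh5 above the upper. Folding energy predicted with RNAfold was -40.5 kcal/mol for Kdr, -31.4 for Cdh5, -26.4 for Tek, -24.0 for C1qb and -16.9 for P2ry12, beside a median of -32.9 and quartiles of -41.4 and -25.8 over the same 5137 windows. The Vtn window was read from a transcript that keeps the intron and had -51.9 kcal/mol. It runs from exon 3 into that intron, so its GC content and folding energy are not those of coding bases alone. AATAAA, searched on the transcript strand only, was found in the windows of C1qb and P2ry12 and in 13.2% of 3′ UTR windows. ATTTA, the core of AU-rich elements, was found in the P2ry12 window and in 19.2% of 3′ UTR windows. The peak centre lay 88 bases from the annotated transcript end in C1qb, 184 in Kdr, 315 to 404 in P2ry12, 324 to 618 in Tek and 613 in Cdh5, with the ranges set by alternative transcripts. The C1qb peak ran 84 bases past the annotated end of the gene and held 98 coding bases beside 163 of 3′ UTR.

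Counts were compared per gene as CPM, the count scaled to its library's TMM-adjusted total, and a stage difference was called where edgeR's quasi-likelihood test gave a Benjamini-Hochberg adjusted p under 0.05 over all 7876 genes tested, all 7 members among them. Gene rows held 4688215 to 6374892 counts per library. The E11.5 libraries stood apart: introns held 25.9% to 32.4% of gene-row counts as means of the 3 later stages, against 61.05% ± 4.17 at E11.5 (SD, n = 3), and TMM factors averaged 1.18 to 1.35 at the later stages, against 0.521 at E11.5. That difference and the stage cannot be told apart, and it moves every comparison with E11.5. Scaled instead by the total of the gene rows or over every peak (where rows called Intergenic, which may have been counted double, entered divided by 2), the median of all genes shifted to 1.22 or 1.27 (log2) at E13.5 against E11.5, where TMM placed it at 0.04. Of 15 listed cortical genes 11 have a row, with Fezf2, a transcription factor of cortical progenitors and deep-layer neurons, between 346 and 882 CPM as stage means.

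All 7 members were near the bottom of the table's range. Their mean over the 12 libraries ran between 2.55 CPM (Vtn) and 8.38 CPM (Kdr), where the median gene had 22.4 CPM, and 76.4% to 95.8% of genes tested were higher. A single count was worth 0.113 to 0.178 CPM at the 3 later stages and 0.299 to 0.386 CPM at E11.5. The authors' peak scores of all 7 lay under the median of gene rows, 30.3. Those of Csf1r (13.3) and Vtn (13.6) were close to the lowest score in the table, 12.5, with 95.6% and 93.9% of gene rows scoring higher. Over the 4 stages, 4 of the 7 differed in edgeR's test, Cdh5, Tek, Vtn and P2ry12 (adjusted p = 2.35e-05, 0.000160, 0.000333 and 0.0155), but 53.7% of all genes tested passed the same test, so that share says nothing particular to them. Kdr, Csf1r and C1qb did not pass (adjusted p = 0.339, 0.336 and 0.457).

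**Figure D1:**
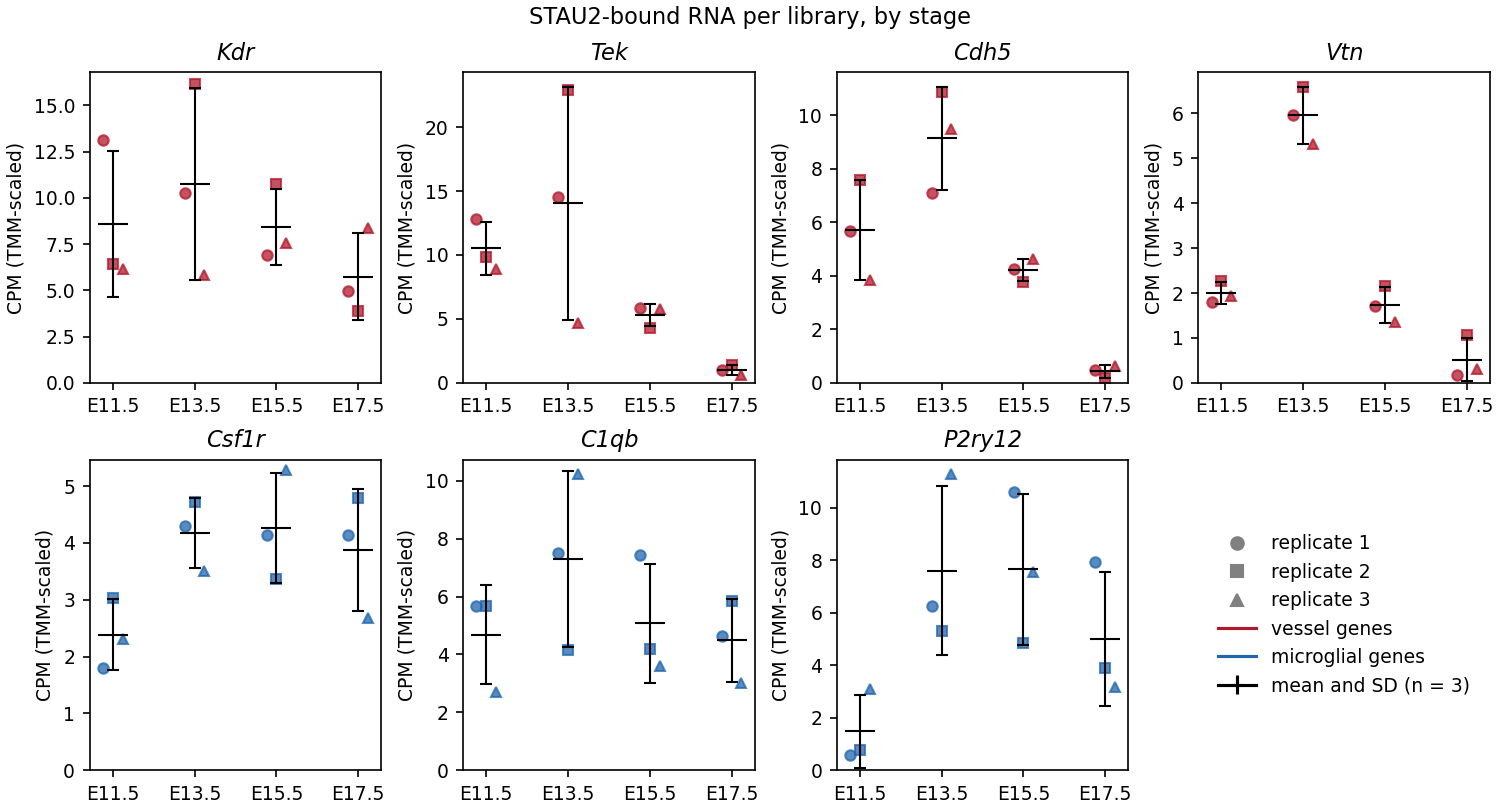
STAU2-bound RNA of the 7 genes in CPM after TMM scaling (vertical axes) at the 4 stages (horizontal axes), with 1 point per library and the mean and SD of 3 libraries. Tek and Cdh5 had stage means of 1.01 and 0.435 CPM at E17.5, with no library near those of the other stages, and P2ry12 had 0.597, 0.758 and 3.09 CPM in the 3 E11.5 libraries.

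Tek, the angiopoietin receptor, was lower in STAU2-bound RNA at E17.5 than at any other stage. Its 3 libraries had 12.8, 9.86 and 8.88 CPM at E11.5, 14.6, 22.9 and 4.67 at E13.5, 5.84, 4.31 and 5.74 at E15.5, and 0.992, 1.42 and 0.632 at E17.5. The E17.5 libraries lay below every other library, while those of E13.5 ran across the range of E11.5 and E15.5. Tek fell at E17.5 to 1.01 ± 0.395 CPM, against 5.30 ± 0.858 CPM at E15.5 (SD, n = 3 each), a log2 change of -2.38 ± 0.55 (SE, edgeR adjusted p = 0.00661), or 5.19-fold lower. The E17.5 value was 10.3-fold below that of E11.5 (log2 -3.37 ± 0.56, edgeR adjusted p = 0.000100). Between E15.5 and E13.5 the log2 difference of -1.40 ± 0.45 was not called (edgeR adjusted p = 0.258); without E13.5 replicate 3, the lowest at that stage, it was -1.81 with an adjusted p of 0.0464. At E13.5 against E11.5 the difference was 0.41 ± 0.46 (edgeR adjusted p = 0.557).

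Cdh5, the junctional cadherin of endothelium, had the largest fall of the 7 at E17.5, by log2 change, under TMM and both total scalings. The libraries had 5.67, 7.58 and 3.86 CPM at E11.5, 7.08, 10.9 and 9.47 at E13.5, 4.26, 3.77 and 4.62 at E15.5, and 0.496, 0.178 and 0.632 at E17.5. The E17.5 values stand for 3, 1 and 4 counts, 8 in all with an exact 95% counting interval of 3.45 to 15.8, against 35, 28 and 41 counts at E15.5. Cdh5 fell at E17.5 to 0.435 ± 0.233 CPM, against 4.22 ± 0.424 CPM at E15.5 (SD, n = 3 each; log2 -3.20 ± 0.50, edgeR adjusted p = 0.000486), which is 9.17-fold lower. Against E11.5 it was 12.4-fold lower at E17.5 (log2 -3.63 ± 0.52, edgeR adjusted p = 2.18e-05). All 3 E15.5 libraries lay below all 3 of E13.5, yet the log2 difference of -1.11 ± 0.37 did not pass (edgeR adjusted p = 0.296), and neither did the 0.68 ± 0.39 at E13.5 against E11.5 (edgeR adjusted p = 0.223). The Tek and Cdh5 calls at E17.5, against E15.5 and against E11.5, held in each of the alternatives that gave a value for them (19, or 18 for Cdh5 at E17.5 against E11.5), which left out each library in turn or changed the scaling, filter, tool, block or samples fitted. The falls against E11.5 were smaller under the gene-row and every-peak totals, at log2 -2.18 and -2.41 for Tek and -2.44 and -2.65 for Cdh5.

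Kdr, the main VEGF receptor of endothelium, did not pass in any comparison under TMM scaling. It had 13.1, 6.45 and 6.18 CPM at E11.5, 10.3, 16.2 and 5.84 at E13.5, 6.94, 10.8 and 7.54 at E15.5, and 4.96, 3.91 and 8.37 at E17.5. Libraries of neighbouring stages overlapped throughout. The log2 difference was -0.54 ± 0.43 at E17.5 against E15.5 (95% interval -1.39 to 0.30, edgeR adjusted p = 0.401) and -0.59 ± 0.45 at E17.5 against E11.5 (95% interval -1.48 to 0.30, edgeR adjusted p = 0.274), intervals that allow both no change and a fall of more than 1 log2 unit. The sign of the second turned under the total scalings, to 0.58 with the gene-row total and 0.36 with the total over every peak.

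Vtn encodes vitronectin, an adhesive extracellular matrix protein made in brain by pericytes, and its level was highest at E13.5. It had 1.79, 2.28 and 1.93 CPM at E11.5, 5.97, 6.58 and 5.32 at E13.5, 1.70, 2.15 and 1.35 at E15.5, and 0.165, 1.07 and 0.316 at E17.5. All E13.5 libraries lay above those of the other stages, and all E17.5 libraries, with 1, 6 and 2 counts, lay below them. Vtn rose at E13.5 to 5.95 ± 0.630 CPM, against 2.0 ± 0.249 CPM at E11.5 (SD, n = 3 each; log2 1.57 ± 0.52, edgeR adjusted p = 0.0358). At E15.5 against E13.5 the log2 difference was -1.77 ± 0.47 (edgeR adjusted p = 0.142, DESeq2 adjusted p = 0.0394). Vtn fell at E17.5 by 1.74 ± 0.59 on the log2 scale against E15.5 (edgeR adjusted p = 0.0470) and by 1.94 ± 0.64 against E11.5 (edgeR adjusted p = 0.0167).

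Each of these Vtn calls was close to the threshold. The rise at E13.5 was larger under the gene-row and every-peak totals (log2 2.74 and 2.79). Its call was lost without any 1 of the 6 libraries of E11.5 and E13.5 (adjusted p up to 0.104). The call at E17.5 against E15.5 was lost with DESeq2 (adjusted p = 0.0521), with RLE scaling (0.0510), with only those stages fitted (0.0886), with each peak row as its own feature (0.0657, but 0.0420 with a replicate block), and without any 1 library except E17.5 replicate 2 (up to 0.168). That against E11.5 was lost with total scaling (log2 -0.75, adjusted p = 0.313, and log2 -0.98, adjusted p = 0.190) and without E17.5 replicate 1 (0.0634) or replicate 3 (0.0575). Without E17.5 replicate 2, which held 6 of the 9 counts at that stage, the falls at E17.5 were larger, at -2.74 against E15.5 and -2.94 against E11.5. The direction was kept in all of these.

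P2ry12, the purinergic receptor by which microglia sense ATP and ADP, was the single microglial gene of the 3 to pass a stage test under TMM scaling. Its libraries had 0.597, 0.758 and 3.09 CPM at E11.5, 6.24, 5.29 and 11.3 at E13.5, 10.6, 4.85 and 7.54 at E15.5, with 7.93, 3.91 and 3.16 at E17.5. At E11.5 the values stand for 2, 2 and 8 counts, and all 3 lay below all 9 later ones. P2ry12 rose at E13.5 to 7.61 ± 3.22 CPM, against 1.48 ± 1.39 CPM at E11.5 (SD, n = 3 each; log2 2.40 ± 0.62, edgeR adjusted p = 0.0102), which is 5.28-fold higher. At E17.5 it was 5.0 ± 2.57 CPM, 3.47-fold above E11.5 (log2 1.79 ± 0.64, edgeR adjusted p = 0.0238). Without E11.5 replicate 3 these changes were larger, at log2 3.47 (adjusted p = 0.00486) and 2.86 (0.00529). The gene-row and every-peak totals gave 3.59 and 3.66 at E13.5 and 3.0 and 2.79 at E17.5. The first call was lost without E11.5 replicate 1 (log2 1.98, adjusted p = 0.0552), and the second without E11.5 replicate 1 (1.38, 0.108), E11.5 replicate 2 (1.51, 0.0848) or E17.5 replicate 1 (1.29, 0.114). Later steps were not called, with log2 0.01 ± 0.48 at E15.5 against E13.5 (edgeR adjusted p = 0.998) and -0.62 ± 0.49 at E17.5 against E15.5 (edgeR adjusted p = 0.407). The P2ry12 peak lies within an intron of Med12l, which is on the other strand, and overlaps no annotated exon of that strand. Whether any of its counts come from Med12l RNA was not tested.

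Csf1r, the receptor for CSF1 and IL-34, had 1.79, 3.03 and 2.32 CPM at E11.5, 4.30, 4.72 and 3.50 at E13.5, 4.14, 3.37 and 5.29 at E15.5, and 4.13, 4.79 and 2.69 at E17.5. All E13.5 libraries lay above all E11.5 libraries, and the later stages overlapped each other. The log2 difference of 0.82 ± 0.44 at E13.5 against E11.5 did not pass under TMM scaling (edgeR adjusted p = 0.194), and passed under both total scalings (2.0 and 2.05). At E17.5 against E11.5 it was 0.71 ± 0.45 (edgeR adjusted p = 0.187), and 1.91 and 1.68 under those scalings, where it passed. The Csf1r peak, at chr18:61130814-61131362 on the plus strand, is shared with exons of Hmgxb3 on the minus strand, whose own row held 54 counts over the 12 libraries against 286 for Csf1r. Csf1r had 4.06 to 6.67 counts for each Hmgxb3 count at the 4 stages. Its window had 49.7% GC and a predicted folding energy of -33.9 kcal/mol, near the medians of 3′ UTR windows.

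C1qb, a chain of complement C1q made by microglia, had no called change under TMM scaling. Its libraries had 5.67, 5.69 and 2.70 CPM at E11.5, 7.49, 4.15 and 10.2 at E13.5, 7.43, 4.18 and 3.6 at E15.5, and 4.63, 5.86 and 3.0 at E17.5, and every stage overlapped every other. The log2 difference was 0.63 ± 0.47 at E13.5 against E11.5 (edgeR adjusted p = 0.353) and -0.07 ± 0.48 at E17.5 against E11.5 (95% interval -1.01 to 0.87, edgeR adjusted p = 0.902). The sign of the second turned under the total scalings (1.11 and 0.87).

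Read by comparison, 2 of the 7 members were called higher at E13.5 against E11.5, where 24.6% of all genes were called and 12.7% were called higher (11.9% lower). None was called at E15.5 against E13.5 with edgeR, where 0.673% of all genes were (53 genes, or 134 with DESeq2, which called Vtn; 735 had an unadjusted p under 0.05, among them Tek, Cdh5 and Vtn). At E17.5 against E15.5, 3 of the 7 were called, all lower, where 20.4% of all genes were called, 11.1% lower and 9.37% higher. At E17.5 against E11.5, 3 were called lower and 1 higher, where 57.8% of all genes were called, 29.0% lower and 28.8% higher. The 2 of 7 at E13.5 and the 4 of 7 at E17.5 against E11.5 are near the shares of all genes called. The libraries of both stages did not overlap for 3 of the 7 at E13.5 against E11.5 (39.1% of all genes), 2 at E15.5 against E13.5 (14.3%), 3 at E17.5 against E15.5 (36.7%) and 4 at E17.5 against E11.5 (62.5%), counts from which nothing particular to the members is read. With each peak row as its own feature, 17.2%, 0.319%, 13.1% and 51.9% of 14106 rows were called in these comparisons, and the same members but for Vtn at E17.5 against E15.5. With the gene-row total in place of TMM, all 7 were called higher at E13.5 against E11.5, with log2 differences between 1.44 (Kdr) and 3.59 (P2ry12), where 5172 of the 7876 genes were.

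**Figure D2:**
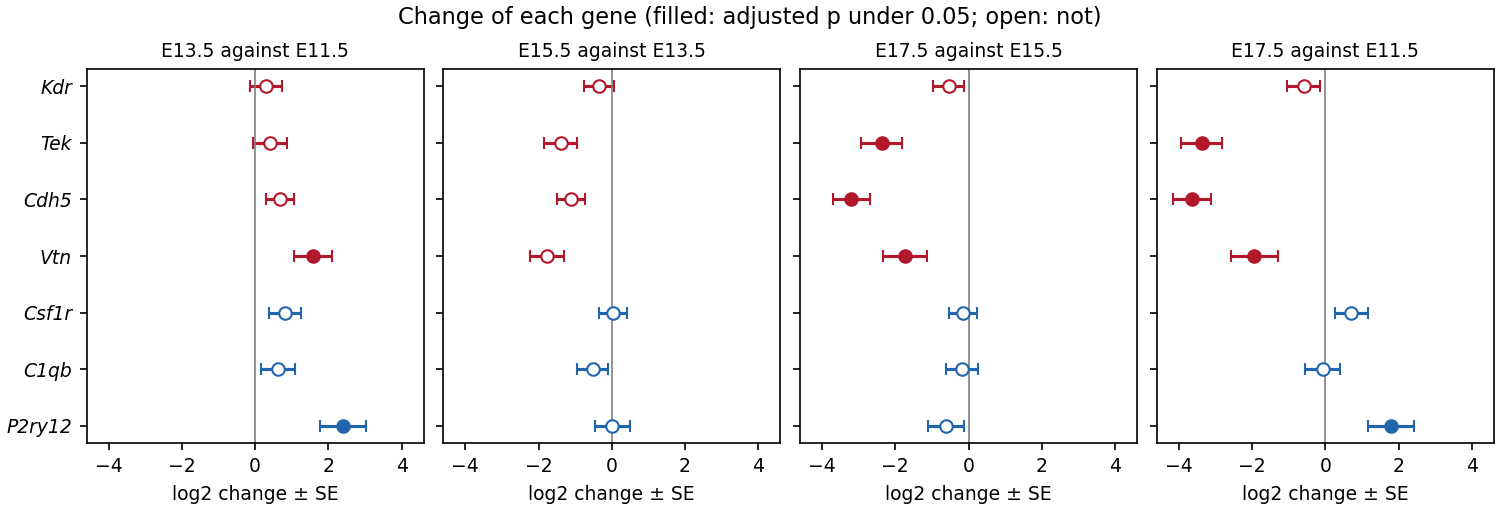
Log2 change of each gene (horizontal axes, later over earlier stage, with SE) in 4 stage comparisons, vessel genes in red and microglial genes in blue. Filled points passed an adjusted p of 0.05: Vtn and P2ry12 at E13.5 against E11.5, Tek, Cdh5 and Vtn at E17.5 against E15.5, and these with P2ry12 at E17.5 against E11.5.

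**Figure D3:**
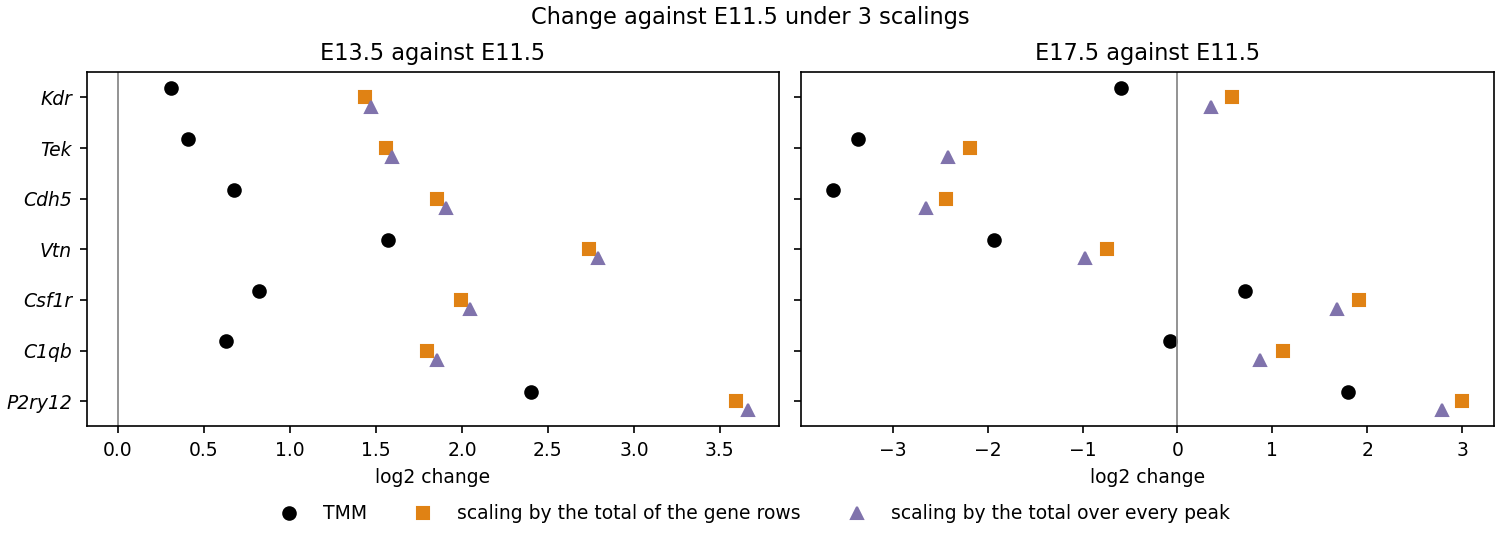
Log2 change of each gene against E11.5 (horizontal axes) with TMM scaling, the total of the gene rows and the total over every peak. Both totals move all genes to the right, and Kdr and C1qb change sign at E17.5 against E11.5, while Tek, Cdh5 and Vtn stay below 0 at E17.5 under all 3.

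Ratios of counts within a library do not depend on the scaling, and they were taken after the values had been seen. Cdh5 had 0.10, 0.0455 and 0.0755 counts for each Kdr count at E17.5, against 0.614, 0.350 and 0.612 at E15.5. All E17.5 ratios lay below all others of any stage. Tek had 0.20, 0.364 and 0.0755 counts for each Kdr count at E17.5, against 0.842, 0.400 and 0.761 at E15.5, and again the libraries did not overlap. The Vtn ratio to Kdr was 0.0333, 0.273 and 0.0377 at E17.5, against 0.246, 0.20 and 0.179 at E15.5, which overlap. No test was run of the difference between Kdr and the other vessel genes.

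Counts of the 4 vessel genes over those of the 3 microglial genes gave 4.15, 2.76 and 2.57 at E11.5, 2.10, 3.99 and 1.01 at E13.5, 0.846, 1.70 and 1.17 at E15.5, and 0.396, 0.451 and 1.12 at E17.5. The E17.5 libraries lay below all of E11.5, and neighbouring stages overlapped. P2ry12 had 0.833, 1.28 and 1.10 counts for each C1qb count at E13.5, against 0.105, 0.133 and 1.14 at E11.5, so E11.5 replicate 3, which held 8 of the 12 P2ry12 counts at that stage, lay with the later libraries.

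**Figure D4:**
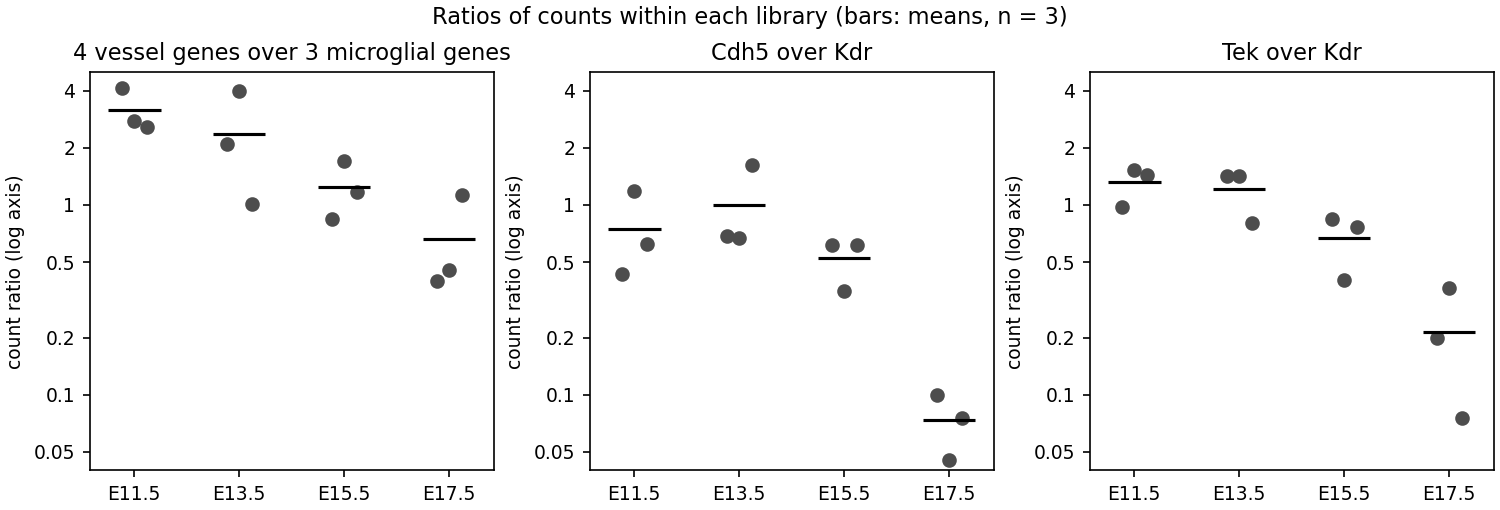
Ratios of counts within each of the 12 libraries (vertical log axes) by stage, with bars at the mean of 3. The ratio of the 4 vessel genes to the 3 microglial genes averaged 0.657 at E17.5, against 3.16 at E11.5, and the E17.5 ratios of Cdh5 to Kdr lay at 0.10 or lower.

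Set per kilobase of peak, so that peaks of different width can be compared, Kdr had the highest stage mean at every stage, though its libraries overlapped those of the next gene throughout. At E13.5 the stage means were 30.9 CPM per kilobase for Kdr, 25.3 for Tek, 22.7 for P2ry12, 21.1 for C1qb, 18.8 for Vtn, 16.3 for Cdh5 and 7.60 for Csf1r. Only Cdh5 and Csf1r, as neighbours in this order, had libraries that did not overlap. At E17.5 the order was Kdr (16.5), P2ry12 (14.9), C1qb (13.03), Csf1r (7.05), Tek (1.83), Vtn (1.63) and Cdh5 (0.778), and the 1 gap between neighbours fell between Csf1r and Tek. Counted over only the 261 of the 345 C1qb peak bases that lie in the gene, C1qb had 17.2 CPM per kilobase at E17.5, above Kdr, and P2ry12 was above Kdr in 2 of the 3 libraries at E17.5 and at E15.5. The 3 microglial genes stood above Tek, Vtn and Cdh5 at E17.5 in every library.

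Over the 12 libraries, log2(CPM + 1) of Cdh5 correlated with Tek at r = 0.88 and with Vtn at 0.85, and Tek with Vtn at 0.80. Kdr correlated with Tek at 0.65, Csf1r with P2ry12 at 0.69, and C1qb with P2ry12 at 0.28. These values are a description, since all libraries share the 4 stages. Among 6857 other genes, those most like Tek were H1f0 (r = 0.964), Incenp (0.956) and Gmnn (0.954), which are a linker histone, a chromosomal passenger protein and a replication licensing inhibitor. Those most like P2ry12 were Celsr2 (0.933), Slc23a2 (0.928) and Plxna2 (0.926), and those most like Kdr were D8Ertd738e (0.885), Adk (0.876) and Pgam5 (0.844). At least 52 genes had a higher r with Tek than any gene had with Kdr, and at least 7 had with P2ry12. The genes named for Tek are thus the top of many. No gene was as close to C1qb, with Mfsd5 at 0.763, Cdc40 at 0.750 and Sil1 at 0.739. Cdh5, Csf1r and Vtn, with means under 5 CPM, were not compared in this way.

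Other vessel genes were drawn from a list of 50 endothelial genes, of which 12 have a row in the table, 9 of them beside Kdr, Tek and Cdh5. At E17.5 against E15.5, 1 of the 9 rose and 2 fell, where 9.37% of all genes were called higher and 11.1% lower. The median log2 difference of the 9 was -0.38, beside 0.00 for all genes. Plvap, a protein of fenestrated and immature vessels, rose to 21.6 ± 8.63 CPM, against 6.98 ± 1.36 CPM at E15.5 (log2 1.63 ± 0.41, edgeR adjusted p = 0.0111). The genes that fell were Mfsd2a, the lipid transporter of the blood-brain barrier (-1.24 ± 0.30, 0.00802), and S1pr1, the sphingosine 1-phosphate receptor (-1.15 ± 0.39, 0.0465). At E17.5 against E11.5, 2 of the 9 rose and 2 fell, where 28.8% of all genes were called higher and 29.0% lower. Mfsd2a was higher (1.06 ± 0.32, edgeR adjusted p = 0.0106) and S1pr1 lower (-1.75 ± 0.40, 0.00146). Named after their values were seen, Rasip1 was higher (3.35 ± 0.87, edgeR adjusted p = 0.00359) and Adgra2 lower (-2.22 ± 0.70, 0.0131). Rasip1 had only 3 counts in all at E11.5 and 66 at E17.5, and its peak overlaps exons of A030001D20Rik on the other strand. Ramp2, an adrenomedullin receptor partner, had the highest level of the list at 73.9 CPM and did not pass over the 4 stages (edgeR adjusted p = 0.156); 2 of its 3 peaks, with 84.0% of its counts, also lie in exons of Vps25. Their summed level without the members was 126 CPM at E17.5 (117 to 139), against 153 CPM at E15.5 (147 to 159), and without Ramp2 it was 65.1 CPM (54.9 to 81.04), against 88.0 CPM (86.3 to 89.2).

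Of 23 listed mural genes, 6 have a row. At E13.5 against E11.5, where Vtn rose, 1 of the 5 beside Vtn rose and 2 fell. Their median log2 difference was -0.96, beside 0.04 for all genes, of which 12.7% were called higher and 11.9% lower. Of the 5, 3 fell and none rose at E17.5 against E15.5, where 11.1% of all genes were called lower. At E17.5 against E11.5, 4 fell and none rose, where 29.0% of all genes were called lower. Notch3, the Notch receptor of mural cells, fell to 9.63 ± 3.76 CPM at E17.5, against 27.9 ± 10.1 CPM at E15.5 (log2 -1.53 ± 0.34, edgeR adjusted p = 0.00537). Cd248, which encodes endosialin, fell by 1.63 ± 0.32 (edgeR adjusted p = 0.00244) and Zic1, a transcription factor also made by meningeal cells, by 1.29 ± 0.33 (edgeR adjusted p = 0.0108). Tagln, a smooth muscle actin-binding protein, had a log2 difference of 0.78 ± 0.70 (edgeR adjusted p = 0.460). Only 198 of the 435 bases of its 3′ UTR peak lie in the gene. That peak overlaps exons of Pcsk7 on the other strand, and its other peak overlaps those of Gm48529. The 5 genes summed to 23.9 CPM at E17.5 (22.9 to 24.96), against 54.7 CPM at E15.5 (43.0 to 69.9).

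Genes of microglia and macrophages did not share a direction. Of 39 listed, 9 have a row. At E13.5 against E11.5, where P2ry12 rose, 1 of the 6 beside the members rose and 1 fell. Of all genes, 12.7% were called higher in that comparison and 11.9% lower. Of the 6 beside the members, 2 rose and 4 fell at E17.5 against E11.5, where 28.8% of all genes were called higher and 29.0% lower. The median log2 difference of the 6 was -2.01, beside 0.03 for all genes. Csf2ra, the GM-CSF receptor chain, rose (2.12 ± 0.34, edgeR adjusted p = 6.69e-05), and so did Apoe, the apolipoprotein of glia and macrophages (1.14 ± 0.33, 0.00815). Dab2, an endocytic adaptor of macrophages, fell to 1.05 ± 0.143 CPM at E17.5, against 18.6 ± 1.31 CPM at E11.5 (-4.12 ± 0.40, edgeR adjusted p = 6.45e-07). Sall1, a transcription factor of microglia that neural progenitors also express, fell at E17.5 against E15.5 (-2.69 ± 0.29, edgeR adjusted p = 3.22e-05). Fcer1g (-1.52 ± 0.46, edgeR adjusted p = 0.0108) and Pf4, of which Pf4 is named after its values were seen, also fell over the whole span, Pf4 to 0 counts in all 3 E17.5 libraries, against 76 counts at E11.5. The 6 genes summed to 123 CPM at E17.5 (107 to 144), against 115 CPM at E11.5 (110 to 120). Most of the E17.5 sum was Apoe (62.6 CPM) and Csf2ra (49.1 CPM), which rose, while the other 4 fell.

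Ligands and partners of the members were in part present. Of 23 listed, 8 have a row. Vegfc, a ligand of KDR and FLT4, fell at E17.5 against E15.5 (-1.13 ± 0.37, edgeR adjusted p = 0.0431) and against E11.5 (-3.12 ± 0.38, edgeR adjusted p = 5.46e-06). Vegfa, the main KDR ligand, had 25.3 ± 10.02 CPM at E17.5, against 18.8 ± 5.64 CPM at E15.5 (0.43 ± 0.32, edgeR adjusted p = 0.358), and Vegfb had 271 ± 126 CPM, against 257 ± 74.3 CPM (0.08 ± 0.43, edgeR adjusted p = 0.923). Angpt1, the TEK agonist, named after its values were seen, fell at E17.5 against E11.5 (-2.17 ± 0.64, edgeR adjusted p = 0.00871), as did Cxcl12 (-0.86 ± 0.26, 0.0107). Jup, plakoglobin, which binds the tail of VE-cadherin, rose at E17.5 against E15.5 (1.35 ± 0.40, edgeR adjusted p = 0.0260). The table analysed lists no gene row for Csf1 and Il34, the CSF1R ligands, nor for Pecam1, Cldn5, Flt1, Pdgfrb, Cx3cr1 or Tmem119 among the markers.

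Markers of neighbouring tissue also changed with stage. The 6 meningeal and fibroblast genes of 12 listed that have a row, with collagens Col1a1, Col1a2 and Col3a1 and the proteoglycan Lum highest, summed to 257 CPM (233 to 276) at E11.5, 311 CPM (295 to 319) at E13.5, 35.6 CPM (31.0 to 39.2) at E15.5 and 3.23 CPM (2.69 to 3.64) at E17.5. Of the 6, 5 fell at E17.5 against E15.5, where 11.1% of all genes were called lower. Choroid plexus, by Ttr and Otx2, summed to 15.8 CPM (11.2 to 19.0) at E11.5, 528 CPM (444 to 571) at E13.5, 95.6 CPM (59.1 to 116) at E15.5 and 2.14 CPM (1.24 to 2.98) at E17.5, with Otx2 at 0 counts at E17.5. Red cell genes Alas2 and Ermap summed to 30.9 CPM (29.3 to 33.4) at E11.5, 0.956 CPM (0.858 to 1.04) at E13.5, 0.592 CPM (0.225 to 0.943) at E15.5 and 0.114 CPM (0 to 0.178) at E17.5. Both the meningeal and the choroid plexus sum were highest at E13.5 and lowest at E17.5, but single genes differed: Twist1, named after its values were seen, fell to 3.97 CPM at E13.5, against 37.0 CPM at E11.5 (log2 -3.21, edgeR adjusted p = 0.000155), Col3a1 had 47.6 CPM against 55.5 CPM (-0.22, 0.708), and Otx2 fell to 1.81 CPM, against 9.54 CPM (-2.39, 0.00432), so that the choroid plexus sum at E13.5 was nearly all Ttr (526 CPM). Of the vessel genes, Vtn alone had E13.5 libraries above those of all other stages, while Tek and Cdh5 overlapped between E13.5 and E11.5. The E17.5 libraries of all 3 were below those of all other stages. The share of all genes with such libraries was not counted. Libraries did not overlap for 36.7% of all genes at E17.5 against E15.5, and for 62.5% at E17.5 against E11.5. Nothing particular to these 3 genes is read from this. The part of these tissues in the changes of Tek, Cdh5 and Vtn was not tested.

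**Figure D5:**
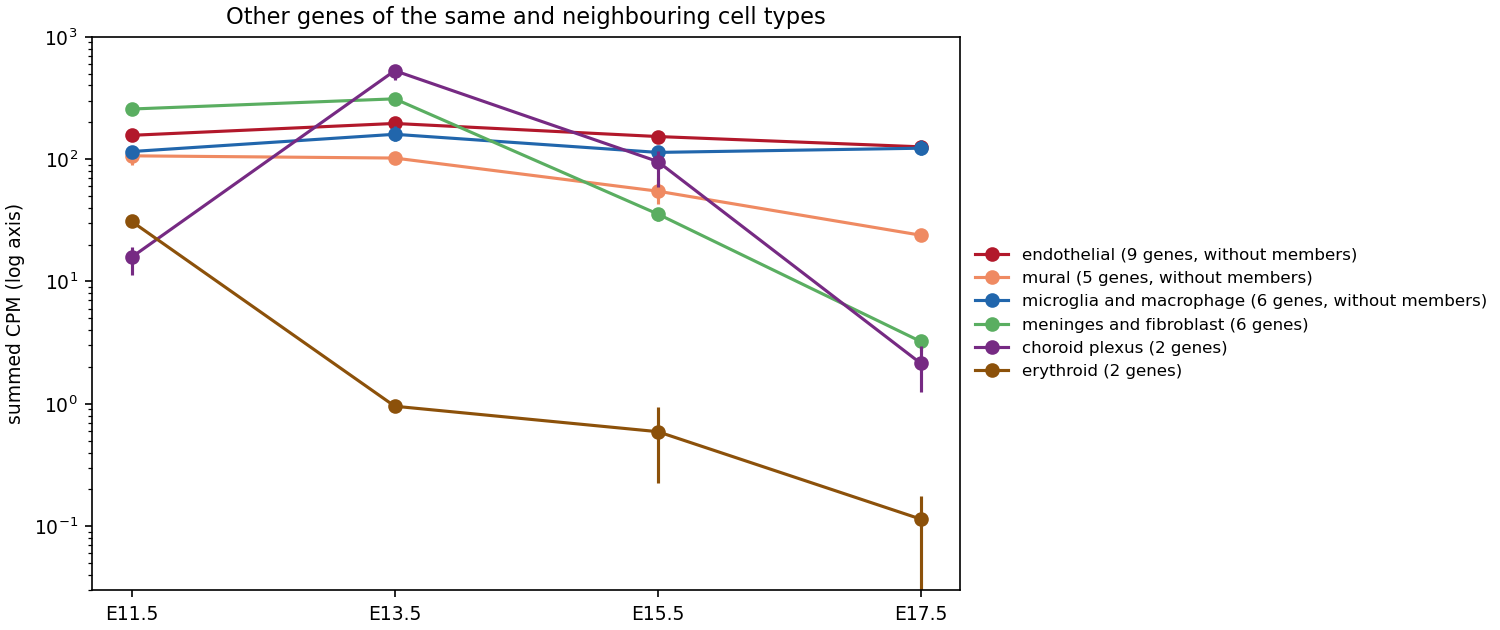
Summed CPM (vertical log axis) of listed genes of 6 cell classes at the 4 stages, without the 7 members; points are means of 3 libraries and lines run between the lowest and highest library, reaching the bottom of the axis where a library is at 0. Meningeal genes had 3.23 CPM at E17.5, against 35.6 at E15.5, while other endothelial genes had 126 CPM at E17.5, against 153 at E15.5, or 65.1 against 88.0 without Ramp2, whose peaks overlap another gene.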

How the data were processed

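Per the labels, ribosomal RNA was removed from the STAU2-bound RNA (Ribo-Zero) before libraries were made with ScriptSeq, a strand-marking kit. The authors deposited whole-number counts per merged peak and strand, and a peak score, used to rank peaks; the submitters' processing notes name HOMER 4.10 and builds mm10 and GRCm38, and for the aligner, counter and peak settings the sources used here give nothing. The 12 count columns carry names that fit both an immunoprecipitation and an input; they were read as immunoprecipitations because the table lists peaks. Of 18975 rows, 4513 called Intergenic and 165 others without a gene were left out of the tests. Intergenic rows held even counts throughout, and all 605 whose peak is also listed under a gene on that strand held exactly double the gene row, so they may have been counted double; for the total over every peak they were divided by 2 and each peak and strand was taken once.

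Counts were summed per gene and fitted over all 12 libraries with edgeR 4.0.16 (TMM, filterByExpr, quasi-likelihood F test, R 4.3.3, limma 3.58.1). The fit was also run on simulated data. Those had the same dispersion for every gene and no shift like that of the E11.5 libraries, so they do not check the scaling against E11.5. DESeq2 1.42.0 and other scalings, filters and left-out libraries were alternatives. Members and lists were chosen with earlier results of these data known. From each list, the 4 most abundant genes and the 2 with the smallest p over the 4 stages were to be named. The most alike genes were the 3 with the highest Pearson r among genes of at least 5 CPM. Windows were folded with RNAfold 2.7.2. Counting intervals cover counting error only. Within each stage all replicate pairs differed by more than sampling noise. Some genes of the lists are not reported here.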

Additional observations from a re-analysis of the deposited data

How the results depend on the processing

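Of the 28 comparisons of a member between stages, 9 were called with TMM scaling and edgeR, 8 with each peak row as its own feature, 14 with either total scaling (both for genes and for peak rows), 9 with DESeq2, and 5 to 9 (also 5 to 9 for peak rows) on leaving out 1 library. The list genes of vessel, mural, microglial, blood, meningeal and choroid plexus cells and of ligands and partners, members included, made 77 calls over the 4 comparisons. They made 44 with only the higher-scoring peaks and 67 to 75 on leaving out 1 library. Leaving out Ramp2 (chosen after seeing the data) could not change the 77, since Ramp2 was called in none of the comparisons. Nothing particular to the lists is read from these totals. With only peaks at or above the median score no member remained, so those values were not computed; with only E17.5 and E11.5 fitted, Cdh5 and Vtn gave none.

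Signs of uncalled differences turned. At E17.5 against E11.5 the gene-row and every-peak totals gave 1.11 and 0.87 for C1qb and 0.58 and 0.36 for Kdr, and the replicate block gave -0.0043 for P2ry12 at E15.5 against E13.5. Leaving out 1 library gave -0.34 to 0.15 (C1qb, E17.5 against E11.5), -0.41 to 0.21 (C1qb, E17.5 against E15.5), -0.15 to 0.18 (Csf1r, E15.5 against E13.5), -0.33 to 0.060 (Csf1r, E17.5 against E15.5), -0.094 to 0.77 (Kdr, E13.5 against E11.5), -0.65 to 0.046 (Kdr, E15.5 against E13.5), -0.29 to 0.41 (P2ry12, E15.5 against E13.5) and -0.12 to 0.83 (Tek, E13.5 against E11.5). The cause was not tested.

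Over all genes, 4228 changed over the 4 stages (2474 with higher-scoring peaks, 6578 peak rows, 6376 with the every-peak total). At E13.5 against E11.5 there were 1937 (998 higher, 939 lower), with 1161 for higher-scoring peaks, 5310 (5172 higher, 138 lower) with the gene-row total and 5404 (5276 higher, 128 lower) with the every-peak total. At E15.5 against E13.5 there were 53 (14 higher, 39 lower), with 134 by DESeq2, 30 for higher-scoring peaks, 29 higher and 29 lower with the gene-row total, 21 higher and 28 lower with the every-peak total, and 11 to 54 on leaving out 1 library. At E17.5 against E15.5 there were 1610 (738 higher, 872 lower), with 853 for higher-scoring peaks, 495 higher and 1110 lower with the gene-row total and 325 higher and 1660 lower with the every-peak total. At E17.5 against E11.5 there were 4549 (2267 higher, 2282 lower), with 2715 for higher-scoring peaks, 7322 peak rows, 4667 higher and 807 lower with the gene-row total and 4162 higher and 985 lower with the every-peak total.

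Same-numbered libraries of different stages correlated at -0.19 to 0.56. Of 18 such pairs 13 were over 0.1, all 3 of them in 3 of the 6 pairs of stages (E13.5 with E11.5, E15.5 with E13.5 and E17.5 with E11.5), and 4 of the 12 libraries correlated best with their own number. The labels do not say what a number marks, so the main values have no block. With a replicate block the counts were 4473, 2148, 63, 1825 and 4742 in the order above, and 9 for the members, 9 for their peak rows and 78 for the lists; of the members' calls it changed that of the Vtn peak row at E17.5 against E15.5 (adjusted p = 0.0420, against 0.0657 without the block). Few counts limit the vessel genes at E17.5 and P2ry12 at E11.5: Cdh5, Vtn and Tek had 8, 9 and 18 counts in all at E17.5, and P2ry12 had 12 at E11.5.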
